A study of Mus musculus with 8 samples.

Results

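The genes described here are 8 with on-off patterns between pools of mouse myeloid cells: the tripartite motif genes Trim12a, Trim30d and Trim5, the microRNA gene Mir1931, the guanine nucleotide exchange factor gene Plekhg1, Erdr1, Ifi202b and Pla2g2a. They were chosen by their measured pool levels, since earlier results of the same arrays showed each of them at background in some pools and bright in others. All probe sets annotated to a single gene, that gene being on the list, were taken, which gave 12 of 34958 single-gene probe sets and 8 of 18194 genes. A further 2 probe sets are annotated to a listed gene together with another gene and were left out. Because the pool levels chose these genes, their levels and differences are given as a description, with no test.

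The RNA of 4 cell pools was read on 8 Affymetrix arrays, 2 technical arrays a pool, and the labels give the strain of all mice as C57BL/6J. The cells were sorted for CD11b and Gr-1, surface proteins of granulocytes and monocytes. The HDC-KO tumor pool came from colon tumors of 5 mice aged 7 months with the genotype HDC-EGFP/HDC-KO, which carry an EGFP reporter for the histamine-making enzyme histidine decarboxylase and lack that enzyme, and the WT tumor pool came from 5 HDC-EGFP mice of the same age. Both sets of tumors followed azoxymethane, a carcinogen, and dextran sodium sulfate taken by mouth, an agent that damages the bowel lining. The HDC-KO bone marrow pool came from HDC-EGFP/HDC-KO mice and the WT bone marrow pool from HDC-EGFP mice, 3 mice per genotype aged 3 to 4 months and not given the carcinogen in the labels, and these cells are described as HDC-expressing. All 4 groups thus carry the EGFP reporter by their genotype labels, although the protocol for the tumor mice names the deficient animals as HDC-KO only. Pooling is stated for the tumor cells and is not stated for the marrow cells.

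TRIM proteins are RING-domain ubiquitin ligases, many of which are raised by interferon and act against viruses. The mouse cluster that holds Trim5, Trim12a and Trim30d grew by gene duplication, so its members resemble each other in sequence. Ifi202b belongs to the PYHIN family of interferon-induced DNA-binding proteins, and its protein opposes the DNA sensor Aim2 in mice. Pla2g2a encodes a secreted phospholipase A2 of the intestinal lining and is known to carry a frameshift in C57BL/6 mice. Ifi202b is likewise known for expression that differs between inbred strains.

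On the arrays, 30.3% to 31.8% of 45101 probe sets lay at or above log2 5, which is taken here as the border of background, and paired technical arrays had correlations of 0.996 to 0.998 over the 8174 genes tested, those that reached log2 5 on 2 arrays or more. Every p-value below sets pools against technical spread only, and variation among mice was not measured. Hdc averaged 13.03 ± 0.01 in the pool labelled HDC-KO tumor and 13.24 ± 0.01 in the WT tumor pool, and 9.83 ± 0.06 in the HDC-KO bone marrow pool and 13.18 ± 0.05 in the WT bone marrow pool (mean log2 ± SD, n = 2 technical arrays). The deleted gene was thus read at full level in tumor cells labelled as lacking it, so directions that involve them depend on a label that Hdc does not bear out. Of 10 myeloid markers 7 had a single-gene probe set, and 6 of these in the pool labelled HDC-KO tumor and 7 in each other pool reached log2 5, the exception being the precursor protease Elane.

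The 8 genes fell into 3 patterns. Trim12a, Trim30d, Trim5, Mir1931 and Plekhg1 were brightest in the WT bone marrow pool, at least 4-fold above each of the other 3 pools. Erdr1 was the reverse, under background in the WT bone marrow pool and bright in the other 3. Ifi202b and Pla2g2a were bright in both tumor pools and under background in both marrow pools, so their levels did not set the WT bone marrow pool apart from the HDC-KO bone marrow pool. By their labels the tumor and marrow pools differ in age, in treatment and in tissue, and these cannot be told apart. With pool means under log2 5 raised to 5, 5 of the 8 genes lay at least 4-fold above every other pool in WT bone marrow, as did 0.184% of all tested genes (15 of 8174), and 1 lay at least 4-fold below, as did 0.208% of all tested genes (17 of 8174). Both tumor pools were at least 4-fold above both marrow pools for 2 of the 8 and for 2.84% of all tested genes. With the same raised means, 1 of the 8 was at least 2-fold higher and 5 lower in HDC-KO bone marrow than in WT bone marrow, beside 1.26% and 1.61% of tested genes. Between the pool labelled HDC-KO tumor and the WT tumor pool 3 were higher and 0 lower, beside 13% and 9.11%. In the WT tumor pool against the WT bone marrow pool 3 were higher and 5 lower, beside 7.16% and 4.1%, and in the pool labelled HDC-KO tumor against the HDC-KO bone marrow pool 3 were higher and 0 lower, beside 18% and 13.9%. The choice of genes fixed these counts, and nothing is read from them.

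**Figure D1:**
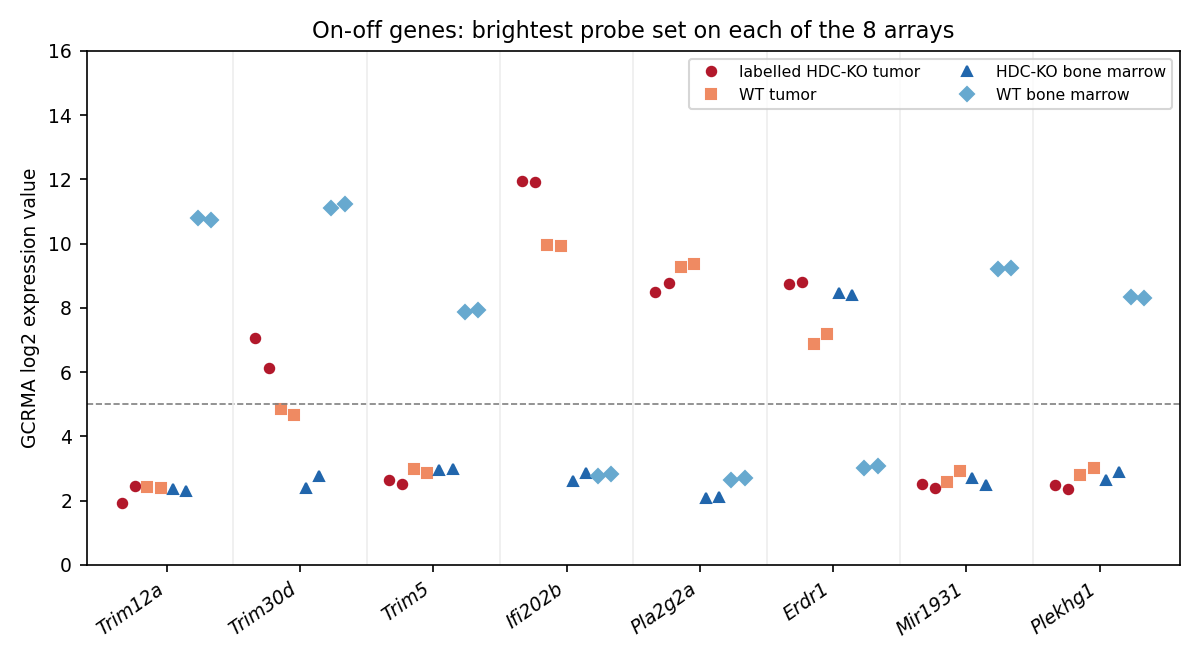
Log2 expression (vertical axis) of the brightest probe set of each of the 8 genes on each array, with pools in the order labelled HDC-KO tumor, WT tumor, HDC-KO bone marrow and WT bone marrow from left to right within a gene. The 2 points of a pool are technical arrays and the dashed line marks log2 5. Trim12a, Trim30d, Trim5, Mir1931 and Plekhg1 are highest in WT bone marrow, Erdr1 is lowest there, and Ifi202b and Pla2g2a are bright in both tumor pools alone.

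Trim12a, a member of the mouse TRIM5-like group, gave the widest gap. Its brighter probe set read log2 1.94 and 2.46 in the pool labelled HDC-KO tumor, 2.42 and 2.40 in the WT tumor pool, 2.37 and 2.32 in the HDC-KO bone marrow pool, and 10.81 and 10.75 in the WT bone marrow pool. Only the WT bone marrow arrays were above background, and no array of another pool came near them. Trim12a was therefore at least 54.8-fold lower in HDC-KO bone marrow than in the WT bone marrow pool, and at least 54.8-fold lower in the WT tumor pool than in the WT bone marrow pool. No fold is given between the tumor pools or between the HDC-KO pools, because both lay under log2 5. The dimmer probe set was likewise highest in WT bone marrow, with pool means of 2.73, 3.00 and 3.25 in the pool labelled HDC-KO tumor, the WT tumor pool and the HDC-KO bone marrow pool, and 5.04 and 5.58 on the WT bone marrow arrays.

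Trim30d, a paralog of the NF-kappa-B regulator Trim30a, was the one of these 5 genes that was also read in a tumor pool. It stood at 7.07 and 6.13 in the pool labelled HDC-KO tumor, 4.84 and 4.65 in the WT tumor pool, 2.38 and 2.77 in the HDC-KO bone marrow pool, and 11.11 and 11.23 in the WT bone marrow pool. The 4 pools did not overlap, and the arrays of the pool labelled HDC-KO tumor lay further apart than those of any other pool (SD 0.66, n = 2 technical arrays). Trim30d was at least 72.0-fold lower in HDC-KO bone marrow than in the WT bone marrow pool and at least 3.03-fold higher in the pool labelled HDC-KO tumor than in the WT tumor pool. Its other probe set stood at 3.49 in the pool labelled HDC-KO tumor, 2.92 in the WT tumor pool, 2.56 in the HDC-KO bone marrow pool and 6.02 in the WT bone marrow pool, so the tumor level was not above background there.

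Trim5, whose primate counterpart restricts retroviruses, read 2.64 and 2.53 in the pool labelled HDC-KO tumor, 2.98 and 2.87 in the WT tumor pool, 2.96 and 3.00 in the HDC-KO bone marrow pool, and 7.87 and 7.94 in the WT bone marrow pool. It was at background in 3 pools and at least 7.51-fold lower in HDC-KO bone marrow and in the WT tumor pool than in the WT bone marrow pool. Trim5, Trim12a and Trim30d lie in this order on chromosome 7 of GRCm38.p6, at chr7:104263386-104288254, chr7:104299893-104315558 and chr7:104470014-104507853, with 207 kb between the starts of the outer genes. Position was not used to choose them.

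The levels of the other TRIM genes of this stretch depended on the probe set. Within 500 kb of the start of Trim5, 7 TRIM genes had single-gene probe sets, and of the 11 probe sets that reached log2 5 in a pool 8 were highest in WT bone marrow, 2 in HDC-KO bone marrow and 1 in the pool labelled HDC-KO tumor. Those 8 include the 5 that belong to Trim5, Trim12a and Trim30d, genes chosen for that level. The share of all probe sets highest in WT bone marrow is not given, so nothing is read from this count. Trim34a, the neighbour of Trim5, had a probe set at 6.90 in the pool labelled HDC-KO tumor, 6.64 in the WT tumor pool, 7.40 in the HDC-KO bone marrow pool and 4.64 in the WT bone marrow pool, and another at 3.70, 3.45, 3.49 and 10.00 in the same order of pools. The 2 probe sets of Trim34a thus ran in opposite directions between the marrow pools, which was noticed after the values were seen.

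Trim12c and Trim30a stood high in every pool on their brightest probe sets, and the dimmer ones differed. The bright Trim12c probe set ranged from 11.55 in the WT tumor pool to 11.85 in HDC-KO bone marrow, while the other was 4.24 in the pool labelled HDC-KO tumor, 4.65 in the WT tumor pool, 5.59 in the HDC-KO bone marrow pool and 7.21 in the WT bone marrow pool. For Trim30a, which restrains NF-kappa-B signalling in mice, the bright probe set was 12.18 in the pool labelled HDC-KO tumor, 11.43 in the WT tumor pool, 10.82 in the HDC-KO bone marrow pool and 11.44 in the WT bone marrow pool, and the other was highest in WT bone marrow at 11.61. Genes of this cluster resemble each other, so which transcripts a probe set reads is uncertain, and the probe sequences were not used here.

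**Figure D2:**
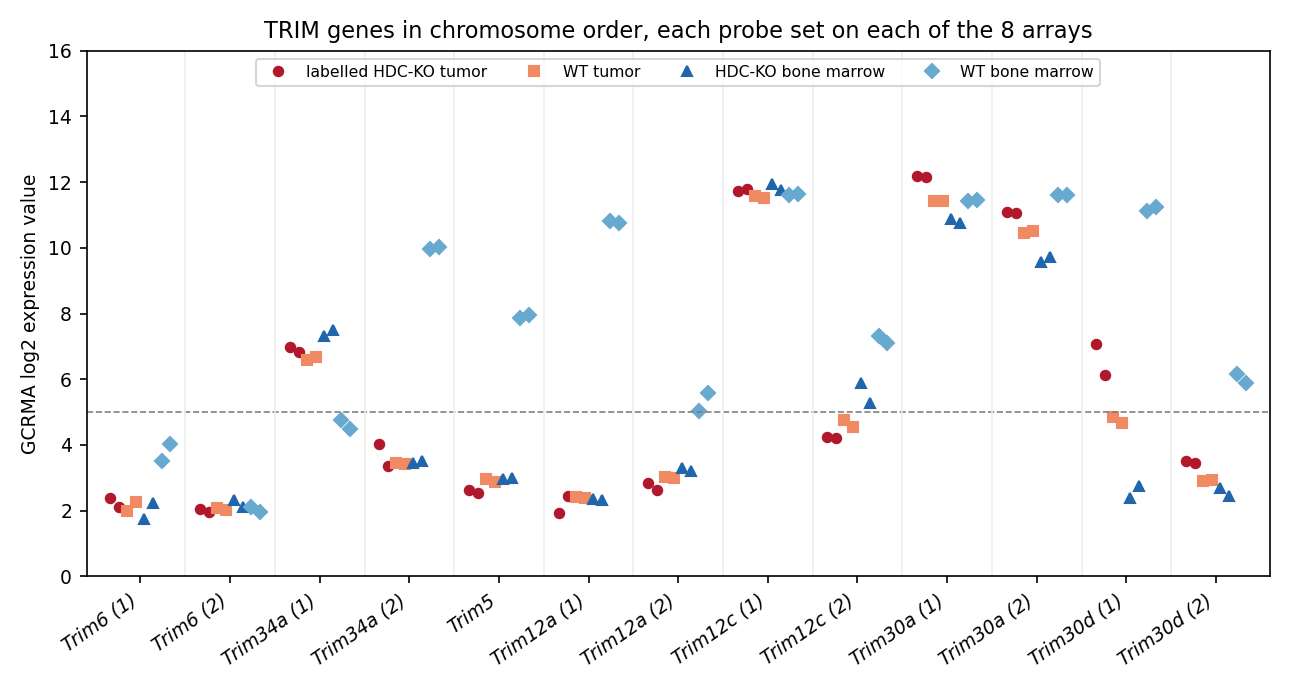
Log2 expression (vertical axis) of every single-gene probe set of the TRIM genes around Trim5, in chromosome order from left to right, on each of the 8 arrays. Numbers after a gene name count its probe sets from the brightest down, and the dashed line marks log2 5. Trim34a runs in opposite directions on its 2 probe sets, and Trim12c and Trim30a are bright in all pools on their first.

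Cell type markers that differed between the marrow pools are given beside these genes. Of 6 listed plasma and B cell markers 5 had a probe set and 4 reached log2 5 in every pool, with summed levels of log2 10.04 to 10.06 in the HDC-KO bone marrow pool and 12.10 to 12.14 in the WT bone marrow pool. The joining chain gene Jchain was 5.09 in the HDC-KO bone marrow pool and 8.90 in the WT bone marrow pool, and the immunoglobulin gene Igha was 5.38 in the HDC-KO bone marrow pool and 11.04 in the WT bone marrow pool. Ighm differed less, at 9.7 in HDC-KO and 10.8 in WT. Cd79b went the other way, at 6.94 in HDC-KO and 5.58 in WT, and Cd79a was under background in both marrow pools. Of 7 T and NK cell markers 2 reached log2 5 in each marrow pool, Cd3d at 12.48 in HDC-KO and 7.63 in WT and Nkg7 at 8.31 in HDC-KO and 9.37 in WT, while Cd3e, Cd3g and Cd8a were under background in both. The tumor pools had higher Jchain and Igha than either marrow pool. In the tumor pools Trim12a and Trim5 were at background, and Trim30d averaged 6.60 in the pool labelled HDC-KO tumor and 4.75 in the WT tumor pool. The part of such cells in the TRIM levels was not tested.

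The start regions of Trim12a, Trim5 and Trim30d are shown because the 3 genes share their high level in WT bone marrow, for which they were chosen, and each window holds the same short motif. The windows run from 250 bases before to 50 bases after a transcript start and come from RefSeq (GRCm38.p6, minus strand, at chr7:104315446-104315745, chr7:104288057-104288356 and chr7:104507800-104508099). These starts lie 63, 148 and 4 bases inside the outer ends of the gene spans given above, and motif positions below are counted from them. Capitals mark matches to TTTC, any 2 bases and TTTC again, a core of the interferon-stimulated response element, searched on both strands.
Trim12a: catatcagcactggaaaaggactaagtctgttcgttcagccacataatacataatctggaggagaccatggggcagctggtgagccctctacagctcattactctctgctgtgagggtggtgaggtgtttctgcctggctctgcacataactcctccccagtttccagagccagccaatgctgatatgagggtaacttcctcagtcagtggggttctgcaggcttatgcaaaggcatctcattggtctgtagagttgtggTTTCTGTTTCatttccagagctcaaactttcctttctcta
Trim5: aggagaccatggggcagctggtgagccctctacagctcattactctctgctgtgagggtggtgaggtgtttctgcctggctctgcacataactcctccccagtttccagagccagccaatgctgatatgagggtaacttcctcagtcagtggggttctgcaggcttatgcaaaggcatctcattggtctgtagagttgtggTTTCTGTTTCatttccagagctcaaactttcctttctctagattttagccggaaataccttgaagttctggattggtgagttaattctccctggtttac
Trim30d: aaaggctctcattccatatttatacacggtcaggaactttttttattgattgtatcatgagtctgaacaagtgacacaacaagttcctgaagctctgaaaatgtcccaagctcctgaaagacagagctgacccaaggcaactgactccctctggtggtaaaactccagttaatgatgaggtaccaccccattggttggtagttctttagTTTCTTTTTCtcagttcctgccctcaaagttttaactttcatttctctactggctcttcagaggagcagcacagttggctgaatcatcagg

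The windows of Trim12a and Trim5 share an unbroken run of 241 identical bases. The match lies in this run, and it spans bases 10 to 19 from the window's start of Trim12a and -49 to -40 from that of Trim5, and the stretch in Trim5 lies within the printed gene span. In Trim30d it spans -41 to -32. A match occurred in 3.43% of 32817 RefSeq windows of the same length, in the 3 TRIM genes above, in 4 of 10 other TRIM genes with a window (Trim12c, Trim21, Trim30a and Trim34a), and in neither Ifi202b nor Plekhg1. The start used for Plekhg1 lies 132416 bases inside its gene span, so its window is not at the outer end of the gene. The printed letters are those of the C57BL/6J reference, and a match describes the window and does not show a factor bound there.

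The probe set annotated to Mir1931 behaved like Trim12a. It stood at 2.53 and 2.39 in the pool labelled HDC-KO tumor, 2.60 and 2.91 in the WT tumor pool, 2.69 and 2.50 in the HDC-KO bone marrow pool, and 9.20 and 9.23 in the WT bone marrow pool. Only WT bone marrow was above background, and the level was at least 18.6-fold lower in HDC-KO bone marrow and in the WT tumor pool. RefSeq places the hairpin on the plus strand at chr10:93162785-93162903, inside the span of Cdk17, a cyclin-dependent kinase gene. The mature sequence, with the seed at bases 2 to 8 in capitals, and the hairpin, with the mature part in capitals, are shown because the annotated RNA is far shorter than the transcripts such arrays are built to read.
Mir1931 mature: aUGCAAGGgcuggugcgauggc
Mir1931 hairpin: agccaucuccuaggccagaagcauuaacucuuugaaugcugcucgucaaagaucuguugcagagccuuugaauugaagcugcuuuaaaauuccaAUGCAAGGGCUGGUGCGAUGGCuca

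The mature RNA has 22 bases, and labelled cRNA of total RNA is not a small RNA assay, so whether this probe set reads the microRNA, its precursor or another transcript of the locus was not tested. Cdk17 itself stood at 10.39 in the pool labelled HDC-KO tumor, 10.56 in the WT tumor pool, 10.57 in the HDC-KO bone marrow pool and 10.76 in the WT bone marrow pool, and its other probe set at 8.99, 8.96, 9.18 and 9.17 in the same order. Cdk17 was not called in any of the 4 comparisons (by limma, with p-values adjusted after Benjamini and Hochberg under 0.05 and a log2 difference of at least 1).

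Plekhg1, which encodes a guanine nucleotide exchange factor, lies on the same chromosome as Mir1931, at chr10:3740251-3967303. It read 2.48 and 2.35 in the pool labelled HDC-KO tumor, 2.79 and 3.01 in the WT tumor pool, 2.63 and 2.91 in the HDC-KO bone marrow pool, and 8.34 and 8.30 in the WT bone marrow pool. The WT bone marrow arrays stood alone, and Plekhg1 was at least 9.98-fold lower in HDC-KO bone marrow and in the WT tumor pool. The dimmer probe set was under log2 5 on every array, and its highest values, 3.26 and 3.10, were again those of WT bone marrow. Of its family, Plekhg2 and Plekhg3 were tested and neither was called by limma in any of the 4 comparisons. Plekhg2 was higher in HDC-KO than in WT bone marrow by 0.63 (limma, adjusted p = 0.033), short of the log2 difference of 1. Neither had an unadjusted p under 0.05 between the tumor pools.

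Erdr1, a gene named for erythroid differentiation, was the gene absent from WT bone marrow. It stood at 8.74 and 8.80 in the pool labelled HDC-KO tumor, 6.87 and 7.20 in the WT tumor pool, 8.46 and 8.39 in the HDC-KO bone marrow pool, and 3.02 and 3.09 in the WT bone marrow pool. Every array outside WT bone marrow was above background, with WT tumor the lowest of the 3. Erdr1 was at least 10.7-fold higher in the HDC-KO bone marrow pool and at least 4.10-fold higher in the WT tumor pool than in the WT bone marrow pool, and 3.33-fold higher in the pool labelled HDC-KO tumor than in the WT tumor pool. This probe set is of a type whose probes can match other sequences, and the other Erdr1 probe set stayed under log2 5 on all 8 arrays, between 2.38 and 2.80, so the probe sets disagree. RefSeq lists Erdr1 on chromosome X at chrX:170010526-170018797 as a transcribed pseudogene. Of its tested neighbours, Mid1, a microtubule-associated TRIM protein gene, was 2.76 in the pool labelled HDC-KO tumor, 2.80 in the WT tumor pool, 5.74 in the HDC-KO bone marrow pool and 2.90 in the WT bone marrow pool, and was named after its values were seen.

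**Figure D3:**
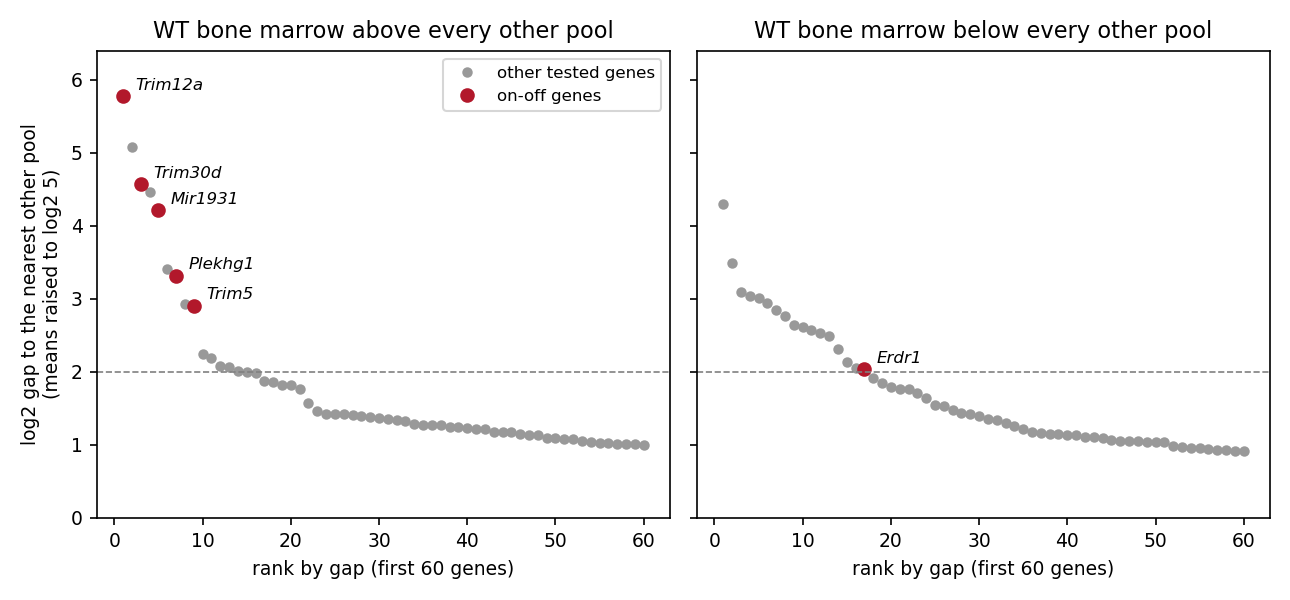
Gap of the WT bone marrow pool to the nearest other pool (vertical axis, log2, pool means raised to log2 5) for the 60 genes with the widest gaps on each side, ranked along the horizontal axis, with WT bone marrow above the rest on the left and below it on the right. Trim12a ranks 1, Trim30d 3, Mir1931 5, Plekhg1 7 and Trim5 9 among genes above, and Erdr1 ranks 17 among genes below. These genes were chosen by their pool levels, so their high ranks follow from that choice and nothing is read from them. The dashed line marks a 4-fold gap.

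The genes most like these 6 were found by the Euclidean distance between the 4 pool means, raised to log2 5 and centred, over all tested genes. For Trim12a they were 2610507I01Rik, the transcription factor gene Stat4 and Trim30d, and the same 3 profiles, with Trim12a in place of Trim30d, came first for Trim30d. For Trim5 they were Dmwd, Plekhg1 and Ldhc, a lactate dehydrogenase of germ cells, and for Plekhg1 they were Ldhc, Dmwd and Trim5. For Mir1931 they were Stat4, Ldhc and 2610507I01Rik. Stat4, which relays interleukin 12 signals, had pool means of 4.72 in the pool labelled HDC-KO tumor, 4.69 in the WT tumor pool, 5.08 in the HDC-KO bone marrow pool and 9.55 in the WT bone marrow pool. Of these genes, Dmwd and Ldhc lie on chromosome 7, Stat4 on chromosome 1 and 2610507I01Rik on chromosome 11. The TRIM cluster is also on chromosome 7, but neither Dmwd nor Ldhc was among the nearest tested neighbours of Trim12a, Trim30d or Trim5. For Erdr1 the nearest were Lpl, the lipoprotein lipase, at 8.74, 6.55, 7.62 and 4.28 in the same order of pools, Tmem87a and Fcrl1, at distances of 0.67 to 1.02. The distance rests on 4 pools, which share their arrays.

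Ifi202b and Pla2g2a marked the tumor pools. Ifi202b stood at 11.96 and 11.91 in the pool labelled HDC-KO tumor, 9.96 and 9.92 in the WT tumor pool, 2.61 and 2.86 in the HDC-KO bone marrow pool, and 2.77 and 2.83 in the WT bone marrow pool. The tumor pools did not overlap each other, while the marrow pools overlapped at background. These values come from the only single-gene probe set of Ifi202b, and whether it also reads transcripts of related genes was not checked. Ifi202b was at least 122-fold higher in the pool labelled HDC-KO tumor than in the HDC-KO bone marrow pool, at least 30.6-fold higher in the WT tumor pool than in the WT bone marrow pool, and 3.99-fold higher in the pool labelled HDC-KO tumor than in the WT tumor pool. In bulk RNA, fewer cells of a type and less RNA per cell cannot be told apart.

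Pla2g2a was the gene of the 8 with a lower level in the pool labelled HDC-KO tumor than in the WT tumor pool among values above background. It read 8.49 and 8.76 in the pool labelled HDC-KO tumor, 9.27 and 9.37 in the WT tumor pool, 2.08 and 2.10 in the HDC-KO bone marrow pool, and 2.64 and 2.69 in the WT bone marrow pool. The tumor arrays lay far above the marrow arrays, and the tumor pools differed by 1.62-fold without overlap. Pla2g2a was at least 12.4-fold higher in the pool labelled HDC-KO tumor than in the HDC-KO bone marrow pool and at least 20.0-fold higher in the WT tumor pool than in the WT bone marrow pool. RefSeq, whose assembly is C57BL/6J, lists Pla2g2a at chr4:138831857-138835189 as a transcribed pseudogene, as it does 25 of 8164 matched tested genes (0.306%) and, of these 8 genes, Erdr1.

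**Figure D4:**
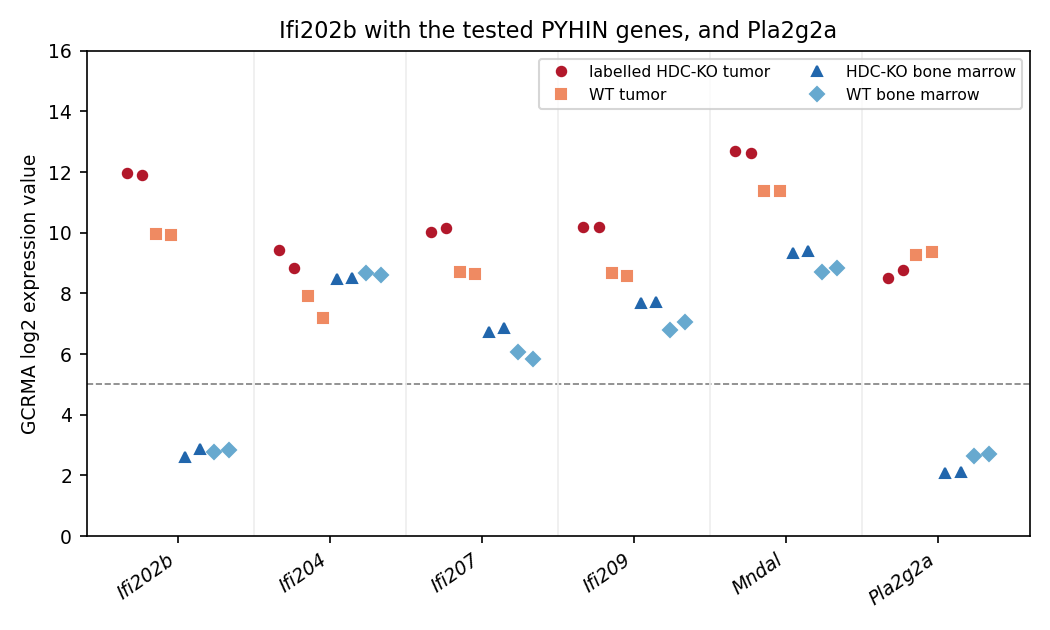
Log2 expression (vertical axis) of Ifi202b, of the 4 tested genes of its family and of Pla2g2a on each of the 8 arrays, with pools in the order labelled HDC-KO tumor, WT tumor, HDC-KO bone marrow and WT bone marrow within a gene. Ifi202b and Pla2g2a lie under the dashed line at log2 5 in both marrow pools, while Ifi204, Ifi207, Ifi209 and Mndal lie above it in all 4 pools.

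Of 16 listed PYHIN genes, the relatives of Ifi202b, 7 had a probe set and 4 reached log2 5 on enough arrays to be tested, all on chromosome 1. These 4 were above background in all 4 pools. Against the WT tumor pool, all 4 were called higher in tumor cells labelled HDC-KO, with a median log2 difference of 1.48, beside 0.03 over all tested genes, of which 15.5% were called higher and 10.5% lower. Ifi204, which acts in innate sensing of DNA, had 9.45 and 8.84 in the pool labelled HDC-KO tumor and 7.91 and 7.20 in the WT tumor pool, a log2 difference of 1.59 ± 0.27 (SE, limma, adjusted p = 0.0021). Ifi209 rose by 1.57 ± 0.10 and Ifi207 by 1.40 ± 0.10 (limma, adjusted p = 2.2e-05 and 3.9e-05).

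Between tissues, Ifi207, Ifi209 and Mndal rose in the WT tumor pool against the WT bone marrow pool and Ifi204 fell, where 11.6% of tested genes were called higher and 4.81% lower. In the pool labelled HDC-KO tumor against the HDC-KO bone marrow pool the same 3 rose and Ifi204 was not called, where 21.1% were called higher and 15.4% lower. Ifi207 had 10.02 and 10.14 in the pool labelled HDC-KO tumor, 8.72 and 8.65 in the WT tumor pool, 6.71 and 6.84 in the HDC-KO bone marrow pool, and 6.08 and 5.84 in the WT bone marrow pool. Its tissue differences were 3.30 ± 0.10 in HDC-KO and 2.72 ± 0.10 in WT, and those of Mndal were 3.29 ± 0.07 and 2.60 ± 0.07 (SE, limma, adjusted p from 1.3e-07 to 3.9e-06). None of the 4 was called between the marrow pools by limma, where 1.8% of tested genes were called higher and 2.02% lower. Ifi207, Ifi209 and Mndal were higher in HDC-KO bone marrow by 0.82, 0.78 and 0.60 (limma, adjusted p = 0.0028, 0.0031 and 0.0021). They missed the call only because each log2 difference was under 1.

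Of 10 other secreted phospholipase A2 genes all had a probe set and 1, Pla2g10, was tested. Pla2g10 stood at 5.88 and 5.62 in the pool labelled HDC-KO tumor and 3.52 and 3.75 in the WT tumor pool, and was under log2 5 on every array of the other 3 pools. It entered the test only through the pool where it was high, so no test is given, and its level in that pool was at least 1.68-fold higher than in the WT tumor pool. Of the tested neighbours of Pla2g2a on chromosome 4, 1 spanned at least 4-fold over the pools. This was Camk2n1, an inhibitor of CaM kinase, at 7.58 in the pool labelled HDC-KO tumor, 4.13 in the WT tumor pool, and 2.40 in each marrow pool.

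Markers of other cells moved with the tumor-bright genes. Of 12 epithelial markers, 11 in the pool labelled HDC-KO tumor, 10 in the WT tumor pool, 1 in the HDC-KO bone marrow pool and 1 in the WT bone marrow pool reached log2 5, with summed levels of log2 14.51 to 14.59, 12.26 to 12.27, 7.80 to 7.93 and 7.68 to 7.97 over the arrays of the pools in that order. The marker above background in marrow was Lgals4. Of 11 goblet and Paneth cell markers, 9, 8, 1 and 1 reached log2 5 in the same order, and Lyz1 was the marker that did so in marrow, at 15.19 in the HDC-KO bone marrow pool and 15.14 in the WT bone marrow pool. Of 8 macrophage markers, 8, 8, 5 and 4 did so. The defining epithelial gene Epcam was 11.72 in the pool labelled HDC-KO tumor, 9.64 in the WT tumor pool, 2.61 in HDC-KO bone marrow and 2.59 in the WT bone marrow pool.

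Ifi202b was nearest by pool profile to Krt8, Epcam and Phgr1, of which Krt8 and Epcam are epithelial markers, at distances of 0.20 to 0.39. Pla2g2a was nearest to Mmp13, a collagenase, Vcan, a matrix proteoglycan, and Dusp5, a phosphatase of MAP kinases, at distances of 0.08 to 0.29. Mmp13 was 8.72 in the pool labelled HDC-KO tumor, 9.31 in the WT tumor pool, 2.32 in the HDC-KO bone marrow pool and 2.09 in the WT bone marrow pool. Epithelial markers had higher means in the pool labelled HDC-KO tumor than in the WT tumor pool, as Ifi202b was and Pla2g2a was not. The part of other cells in the levels of Ifi202b and Pla2g2a was not tested.

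Interferon-induced genes were read beside the TRIM genes and Ifi202b, many of whose relatives respond to interferon. Of 25 listed genes 19 were tested. Between the marrow pools 6 fell in HDC-KO and 0 rose, where 2.02% of tested genes were called lower, with a list median of -0.31. Ifit1 had 5.85 and 5.81 in the HDC-KO bone marrow pool and 8.35 and 8.27 in the WT bone marrow pool, a fall of 5.55-fold. Oasl2 fell 4.94-fold and Zbp1 3.99-fold (limma, adjusted p from 6.3e-06 to 2.0e-04). Ifit1, Oasl2 and Zbp1 stayed above log2 5 in all 4 pools, unlike Trim12a, Trim30d and Trim5.

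In the pool labelled HDC-KO tumor against the WT tumor pool, 13 of the 19 rose and 0 fell, beside 15.5% of tested genes called higher and 10.5% lower. Mx1 rose 8.52-fold, Ifit3 7.71-fold and Oasl2 6.53-fold (limma, adjusted p from 6.7e-06 to 4.3e-05). Trim30d and Ifi202b were higher in the same pool, whereas Trim12a, Trim5, Mir1931 and Plekhg1 were under background in both tumor pools. Their relation to interferon was not tested. In the WT tumor pool against the WT bone marrow pool 2 rose and 4 fell, beside 11.6% and 4.81% of tested genes. The lowest log2 differences were those of Oasl2 (-4.08), Ifit3 (-3.12) and Usp18 (-1.59). Of the 2 that rose, Mx1 was under log2 5 in WT bone marrow, and with raised means its difference was 0.11. In the pool labelled HDC-KO tumor against the HDC-KO bone marrow pool 11 rose and 0 fell, beside 21.1% and 15.4% of tested genes. Zbp1 and Ifit1 rose by 3.51 and 3.48 on the log2 scale, and Mx1, under log2 5 in HDC-KO bone marrow, was at least 9.22-fold higher.

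The genes around the others gave few further examples of the pattern. Taking up to 5 tested genes on either side in RefSeq order gave 52 neighbours, of which 11 (21.2%) spanned at least 4-fold over the pools, beside 1311 of 8174 tested genes, and 4 were called between the marrow pools, beside 312 of 8174, namely Trim34a, Hal, Mid1 and Fcer1a. Mid1 and Fcer1a were each above log2 5 in a single pool and entered the test only through it. Fcer1a, the alpha chain of the IgE receptor, was 2.72 in the pool labelled HDC-KO tumor, 2.86 in the WT tumor pool, 3.04 in the HDC-KO bone marrow pool and 6.17 in the WT bone marrow pool, the same side as the TRIM genes, lies near Ifi202b, and was named after its values were seen. Besides Trim34a, Ifi207, Ifi209, Mndal and Camk2n1, those that spanned it were Rrm1, Elk3, Lta4h, Hal, Syne1 and Fbxo5. Hal, the histidine ammonia-lyase gene downstream of Mir1931, was 7.14 in the pool labelled HDC-KO tumor, 8.15 in the WT tumor pool, 7.71 in the HDC-KO bone marrow pool and 4.58 in the WT bone marrow pool, the same side as Erdr1. Of the 10 tested neighbours of Hdc on chromosome 2, limma called none between the marrow pools or between the tumor pools, and each log2 difference was under 1 in size. Slc27a2, a fatty acid transporter gene near Hdc, was under background in both tumor pools and at 9.85 in HDC-KO bone marrow and 9.79 in WT bone marrow.

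Genes known to differ between mouse strains were set beside the 8, since the labels give a single strain for all mice. Of 10 such genes 8 had a single-gene probe set and 7 were tested. Gbp2b, an interferon-induced guanylate-binding protein whose induction is known to depend on strain, was 10.41 and 10.47 in the pool labelled HDC-KO tumor, 9.27 and 9.41 in the WT tumor pool, 8.05 and 7.84 in the HDC-KO bone marrow pool, and 1.20 and 1.99 in the WT bone marrow pool. It was under background in WT bone marrow alone, as Erdr1 was. Gbp2b was at least 7.71-fold higher in the HDC-KO bone marrow pool than in the WT bone marrow pool (log2 difference 6.35 ± 0.24, SE, limma, adjusted p = 2.5e-05) and at least 20.3-fold higher in the WT tumor pool than in the WT bone marrow pool.

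H2-Ea, the alpha chain of the class II molecule I-E, is known not to be transcribed from the H2-b haplotype of C57BL/6 mice, and RefSeq lists it as a transcribed pseudogene. It stood at 13.24 and 13.15 in the pool labelled HDC-KO tumor, 11.52 and 11.52 in the WT tumor pool, 3.93 and 3.83 in the HDC-KO bone marrow pool, and 2.02 and 2.03 in the WT bone marrow pool. Both tumor pools were bright, and both marrow pools lay under background without overlap. H2-Ea was at least 293-fold higher in the pool labelled HDC-KO tumor than in the HDC-KO bone marrow pool and at least 91.8-fold higher in the WT tumor pool than in the WT bone marrow pool. It entered the fit only through the tumor pools, where it was high, so no test between tissues is given. A further probe set had the same order, at 12.43, 10.06, 3.88 and 3.33, and the last stayed between 2.23 and 2.50 on all arrays. Macrophage markers were also higher in the tumor pools, as given above. The part of such cells in the level of H2-Ea was not tested.

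None of the remaining 6 genes with a probe set was on or off in WT bone marrow alone. Mx1, an interferon-induced antiviral GTPase disrupted in most laboratory strains, was 8.20 in the pool labelled HDC-KO tumor, 5.11 in the WT tumor pool, 4.12 in the HDC-KO bone marrow pool and 3.87 in the WT bone marrow pool. Nnt, the mitochondrial transhydrogenase that carries a known deletion in C57BL/6J mice, stood at 10.72 in the pool labelled HDC-KO tumor, 11.26 in the WT tumor pool, 11.85 in the HDC-KO bone marrow pool and 11.09 in the WT bone marrow pool, and whether its probes lie in the deleted part was not checked. Hc, complement component 5, was 3.82, 7.02, 5.10 and 4.35 in that order, so WT tumor stood above the rest. Wdfy1 was 8.70, 9.49, 9.71 and 10.23 in the same order, and Cd244a, a receptor of natural killer and other cells, was 11.06, 9.67, 4.23 and 5.07. Klra8, a natural killer receptor gene that C57BL/6 mice carry and many strains lack, was under log2 5 on every array. Arrays read RNA and not genotype, so the strain of the mice behind each pool was not measured, and its part in the levels of these genes was not tested.

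**Figure D5:**
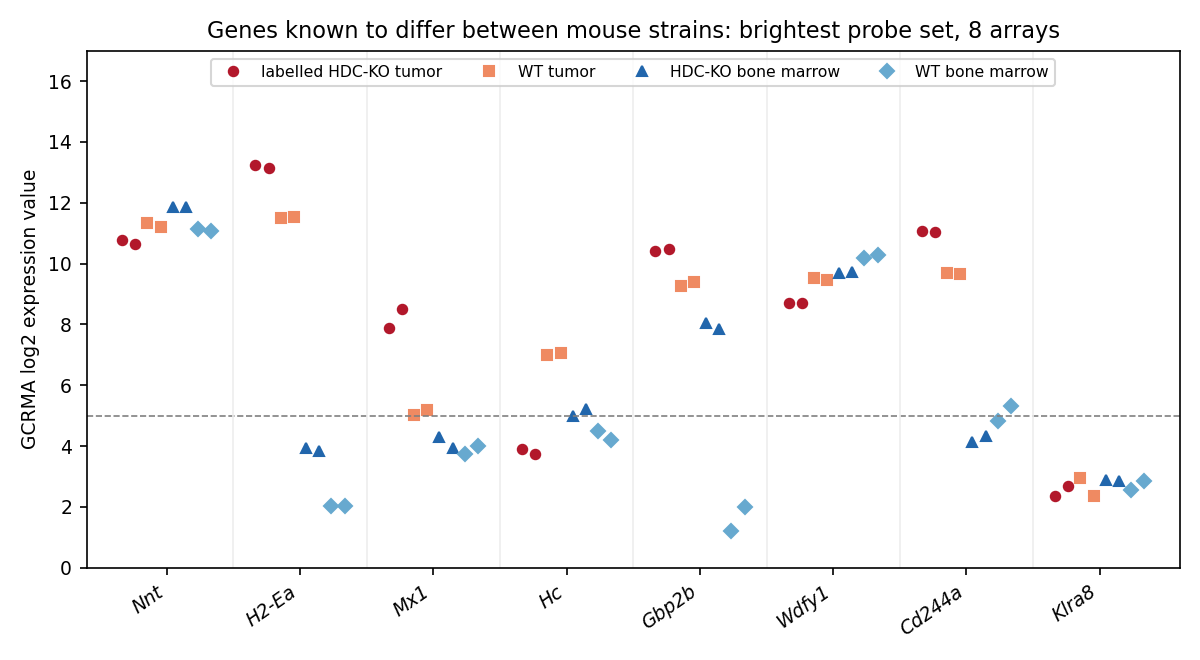
Log2 expression (vertical axis) of the brightest probe set of 8 genes known to differ between mouse strains on each of the 8 arrays, with pools in the order labelled HDC-KO tumor, WT tumor, HDC-KO bone marrow and WT bone marrow within a gene. Gbp2b is under the dashed line at log2 5 in WT bone marrow alone, and H2-Ea is under it in both marrow pools.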

How the data were processed

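The values of 45101 probe sets are log2 expression as deposited; the submitters' processing notes name GCRMA, with no version. Their log2 scale rests on their range, 0.75 to 15.34, since no source states it. Groups came from the array titles. Gene symbols are those of GEO's platform annotation: 34958 probe sets had 1 symbol, 932 several and 9211 none, and only the first were named. The probe set with the highest mean stood for a gene. The 8174 genes that reached log2 5 on 2 arrays or more entered a fit of all 8 arrays by limma 3.58.1 (R 4.3.3) (4 residual and 2.14 prior degrees of freedom). A gene was called below an adjusted p of 0.05 (Benjamini-Hochberg) with a log2 difference of at least 1. The fit was tested on simulated data. Where a pool lay under log2 5 its mean was raised to 5, and the fold is a bound.

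The genes described and the lists were chosen with earlier results of these data known. From each list the 3 called genes with the largest difference per comparison were named, and every strain-variable gene with a probe set. Array number, 2 per pool, limits precision. Python 3.11.15, numpy 2.4.6, pandas 2.3.3 and matplotlib 3.10.9 were used.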

Additional observations from a re-analysis of the deposited data

Results flagged for a closer look

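Trim30d differed between the marrow pools and the tumor pools in opposite directions: its log2 difference, HDC-KO minus WT, was -8.60 in bone marrow and 1.85 in tumor, and every array followed its pool. The HDC-KO bone marrow and WT tumor pools lay under log2 5, so neither size is measured. With raised means the differences were -6.17 and 1.60. The other probe set was under log2 5 in both tumor pools, at 3.49 in the pool labelled HDC-KO tumor and 2.92 in the WT tumor pool. This difference of effects was not tested, because the gene was chosen for its levels. Of the named genes set beside it that were above background in more than 1 pool, limma called the effect of the HDC-KO label, tumor minus marrow, different for 14. Many of these were named for large differences in the same comparisons, and the share over all tested genes is not given. They include Mx1, Cd244a and Hc, for which no test is given below. Nothing is therefore read from the count. Among the named interferon-induced genes the difference of effects was 5.01 for Oasl2, 4.90 for Ifit3, 4.54 for Ifit1, 3.50 for Zbp1 and 3.26 for Usp18 on the log2 scale (limma, adjusted p from 2.3e-06 to 1.8e-05). For Mx1 it was 2.84, but Mx1 entered the fit only through the tumor pools, where it was high, so no test is given. Ifih1, Irf7, Parp14, Rsad2 and Xaf1, listed but not named by size, were called with positive differences too. The difference of effects was also positive for Ifi204 (1.75), Trim30a (1.36) and Trim21 (1.34), with adjusted p (limma) from 2.9e-05 to 0.0074. For Cd244a it was 2.22, and Cd244a too entered the fit only through the tumor pools, so no test is given.

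The difference was negative for Gbp2b (-5.26), Trim34a (-2.50) and Nnt (-1.31), with adjusted p (limma) from 4.4e-05 to 8.8e-05. For Hc it was -3.95, and Hc entered the fit only through the WT tumor pool, where it was high, so no test is given. Gbp2b, Hc, Trim34a, Cd244a and Mx1 each had a pool under log2 5, so the size of their difference is not measured. With pool means raised to log2 5 it was -1.85 for Gbp2b, -2.12 for Hc, -2.14 for Trim34a, 1.45 for Cd244a and 3.09 for Mx1. The other probe set of Trim34a gave 6.76, or 5.00 with raised means, the opposite sign. All of these rest on a tumor label that Hdc does not bear out.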

How the results depend on the processing

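The counts of called relatives and interferon-induced genes stayed within 1.5 times under all alternatives, with 1 exception. The relatives called between the marrow pools numbered 1, and 2 with no filter or with the mean of probe sets. Leaving out each array gave 4 to 6 relatives between the tumor pools, 4 to 6 between the WT tissues, 4 to 5 between the HDC-KO tissues, and 13 interferon-induced genes between the tumor pools. With the replicate number as a block the relatives called numbered 1, 5, 6 and 5, as without it. The order is HDC-KO against WT bone marrow, HDC-KO against WT tumor, and tumor against marrow in WT and in HDC-KO. These are of 11 relatives tested, beside 312, 2122, 1338 and 2986 of all 8174 tested genes without the block. Without it the marrow call was Trim34a, whose other probe set ran the opposite way. Each of the other counts then includes Pla2g10, for which no test is given. Nothing is read from these counts. Same-numbered arrays did not deviate together (correlations of -0.01 to 0.06), so they were not taken as pairs. Of the differences of the 8 genes under alternatives, 220 stayed within the spread of technical arrays and 36 moved beyond it. Small differences between pools at background changed sign when an array was left out: Trim12a gave 0.05 in place of -0.21 between the tumor pools and 0.11 in place of -0.14 between the HDC-KO tissues, and Ifi202b 0.06 in place of -0.07 between the marrow pools. No other difference changed sign. With the mean of probe sets, the marrow differences were -5.25 for Trim12a, 2.83 for Erdr1 and -3.19 for Plekhg1, against -8.43, 5.37 and -5.55 for the brightest probe set. Quantile normalization gave Trim12a -8.45 and Trim30d -8.60 between the marrow pools. With means raised to log2 5 these were -5.78 and -6.17, since both genes lay under background in HDC-KO bone marrow.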
